A study of Mus musculus with 5 samples.

Results

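Columnar cells of chemically induced mouse colon tumors were compared with columnar cells of normal mouse colon. A cell counted as columnar when it held at least 5 unique molecular identifiers (UMIs, 1 for each counted RNA molecule) of the epithelial genes Krt8, Krt18 and Lgals4 together. It also had to hold more of these than of the squamous keratins Krt5 and Krt14, and under 3 UMIs of the immune, endothelial and fibroblast genes Ptprc, Tyrobp, Csf3r, Pecam1, Cdh5 and Dcn. Barcodes with under 500 genes or over 15% mitochondrial UMIs were left out. The rule kept 5034 columnar cells of 8491 barcodes in 5 inDrop single-cell libraries, 4680 from 4 tumor libraries and 354 from 1 normal library.

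The tumors were adenomas of wild-type (WT) mice given the carcinogen azoxymethane (AOM) and the colitis agent dextran sulfate sodium (DSS), and every tumor library came from animals treated with 5FU+Irinotecan. The 4 libraries carried the labels day 1 replicate 1, day 1 replicate 2, day 3 and day 6 after treatment, and held 497, 1446, 1042 and 1695 columnar cells with 3698418, 12197092, 5073410 and 9870225 UMIs. The normal library came from untreated WT colon, carried the label WT fibroblast and was dissociated to enrich stroma, after crypts had been shaken off, whereas the tumors had the normal dissociation. Its 354 columnar cells held 3139132 UMIs. The mice were of both sexes, young adults at the start, and of C57BL/6J or mixed C57BL/6J;129 background. How many animals stood behind a library was not given in the sources used here. The study took tumors from the distal colon and named no segment for the normal colon. Tumor crypts held by a filter were kept, and the flow-through was discarded. Tumor against normal, treated against untreated and the 2 dissociations fall on the same 2 groups, and colon segment may too. Their parts in any difference cannot be told apart.

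The colon is lined by columnar cells that are born from WNT-driven stem cells at the crypt base and mature as they move to the surface. Mature colonocytes absorb chloride, bicarbonate, sodium and water, burn butyrate made by bacteria, and detoxify sulfide. Tumors that start from an activated WNT pathway keep stem cell and progenitor programs switched on and often lose these absorptive ones. Regenerating crypts after injury take on a fetal-like program instead.

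Values are UMIs summed over the columnar cells of a library, scaled by the trimmed mean of M values and given as counts per 1000000 (CPM). In every list of 4 tumor values the order is day 1 replicate 1, day 1 replicate 2, day 3 and day 6. The genes were chosen by their CPM in these same libraries and the normal side has 1 library, so that no test was made and the values are a description. A gene was placed above the tumor range when the normal value was higher than all 4 tumor values, and below it when lower. Intervals of normal values cover counting error only. Of 9425 genes that averaged at least 10 CPM over the 2 groups, 2382 (25.3%) lay above and 2734 (29%) below the range, and 4309 (45.7%) lay within it. At least 2-fold from the nearest tumor library lay 527 genes (5.59%) above and 425 (4.51%) below. Without the day 6 library the last count was 716. Leaving out a tumor library narrows the range, so that counts outside it rose over all genes as well as in lists. The margin fell between Lipc and Rpl26 above, at log2 distances of 1.00066 and 0.999538, and between Shf and Gatc below, at -1.00298 and -0.996865.

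Cells that passed the rule held epithelial RNA in every library, but free RNA differed between them. Cdh1, Vil1 and Krt19, epithelial genes that the rule did not use, were within the tumor range in the normal library, at 1120.4, 289 and 1699 CPM. In tumor non-epithelial cells they were at 294 to 728, 102 to 155 and 792 to 1199 CPM. Their levels thus do not show that every cell kept was columnar. Epcam was not analysed here. The median columnar cell held 18, 25, 22 and 20 UMIs of the 3 rule genes in the tumor libraries and 51 in the normal library. Non-epithelial cells (at least 3 UMIs of the 6 immune, endothelial and fibroblast genes) held a median of 8, 9, 17 and 10 of these UMIs in the tumor libraries and of 1 in the normal library. Epithelial RNA was thus found in tumor barcodes of other types, and values in non-epithelial cells are given beside many of the results below. Of the 527 genes above by 2-fold, 217 were at least 2 times higher in normal columnar than in normal non-epithelial cells. Of the 425 below by 2-fold, 42 were at least 2 times higher in tumor columnar than in tumor non-epithelial cells. Among all genes outside the range by any distance, this held for 654 of 2382 above and 90 of 2734 below. The library design was single index for day 1 replicate 1 and for day 3, and dual index for the other 3 libraries, the normal one included. Goblet-rich cells (over 2% of UMIs from 7 goblet genes) made up 3.53 to 10.7% of tumor and 9.04% of normal columnar cells.

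**Figure D1:**
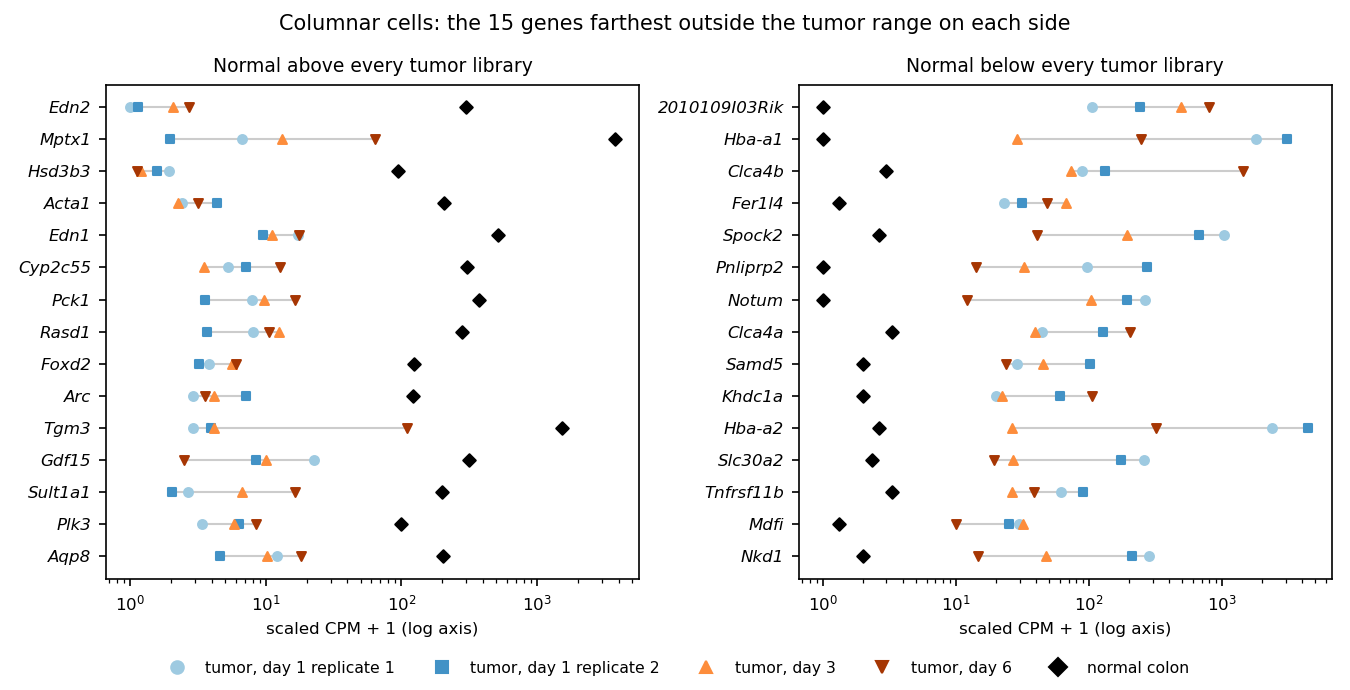
Levels of the 15 genes farthest above (left) and the 15 farthest below (right) the tumor range in columnar cells, as scaled CPM plus 1 on a log axis. Each row is a gene, colored symbols are the 4 tumor libraries joined by a grey line, and the black diamond is the normal library, which stands clear of the line in each of the 30 rows as the rule requires.

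Transport genes lay above the tumor range for 14 of 21 members, 9 of them by 2-fold. Aqp8, the water channel of surface colonocytes, was at 11.1, 3.62, 9.28 and 17.3 CPM in the tumor libraries and 199.9 (95% Poisson interval 184 to 217) in the normal library, 11.6 times the highest tumor value. Slc26a3, the chloride-bicarbonate exchanger of the surface, was at 34.1, 5.91, 11 and 56.8 CPM in tumors and 549.8 in normal cells, 9.68 times the highest. In both genes day 1 replicate 2 was the lowest and day 6 the highest tumor library, and both remained under the normal value.

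Slc26a2, a sulfate transporter, was at 227, 189, 304 and 292 CPM against 2098. Car4, a membrane carbonic anhydrase of the absorptive surface, was at 2.37, 0.887, 18.4 and 51.2 against 209.8 CPM. None of the transport genes tested was below the range, and the list's median log2 difference was 1.73 against -0.08 over all genes tested. In non-epithelial cells of the same libraries its median was 0.73. Slc9a3, a sodium-hydrogen exchanger, was one of 7 within the range, at 24.4, 31.2, 19.8 and 1.73 CPM against 3.97.

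Cyp2c55, a cytochrome P450 of the colon, was at 4.27, 6.21, 2.53 and 11.6 CPM in tumors and 303 in normal cells. Sult1a1, a phenol sulfotransferase, was at 1.66, 1.03, 5.7 and 15.6 against 198 CPM. Hsd3b3, a steroid dehydrogenase, had 0.949, 0.591, 0.211 and 0.115 CPM against 93.7, so that no tumor library held as much as 1 CPM. Pck1, the gluconeogenic enzyme, was at 6.88, 2.59, 8.65 and 15.4 against 375 CPM. All 4 enzymes were 12.7 to 98.7 times the highest tumor value.

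Mptx1, a mucosal pentraxin, was the most abundant of the 15 genes farthest above, at 3749.7 CPM in normal cells against 5.69, 0.961, 12.2 and 62.5 in tumors. Tgm3, a transglutaminase, reached 1523 CPM against 1.9, 2.96, 3.16 and 108. The day 6 library was the highest tumor library for both, and for Tgm3 it stood far from the others. After each cell was thinned to 1000 UMIs, 29% (95% interval 24.3 to 34%) of normal columnar cells held a Mptx1 UMI and 0.0692 to 4.2% of tumor columnar cells, beside 14.5% of normal non-epithelial cells. For Slc26a3 the shares were 29.3% (95% interval 24.6 to 34.3%) in normal and 0.277 to 3.63% in tumor columnar cells, with 6.48% of normal non-epithelial cells. Median depths before thinning were 5619.5 UMIs in normal columnar and 2883 in normal non-epithelial cells.

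Edn2 and Edn1, which encode endothelins, were at 299 and 518 CPM in normal cells, against 0 to 1.73 and 8.5 to 16.5 in tumors. Gdf15, a stress cytokine and p53 target, was at 21.8, 7.46, 9.07 and 1.5 CPM against 313. Rasd1, a Ras-related protein, and the immediate early genes Plk3 and Arc were at 280.3, 97.6 and 120.5 CPM, and in tumors reached no more than 11.6, 7.49 and 6.21. Foxd2, a forkhead factor, and Acta1, the skeletal muscle actin, were at 122 and 204 CPM against tumor ranges of 2.22 to 5.07 and 1.27 to 3.4.

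**Figure D2:**
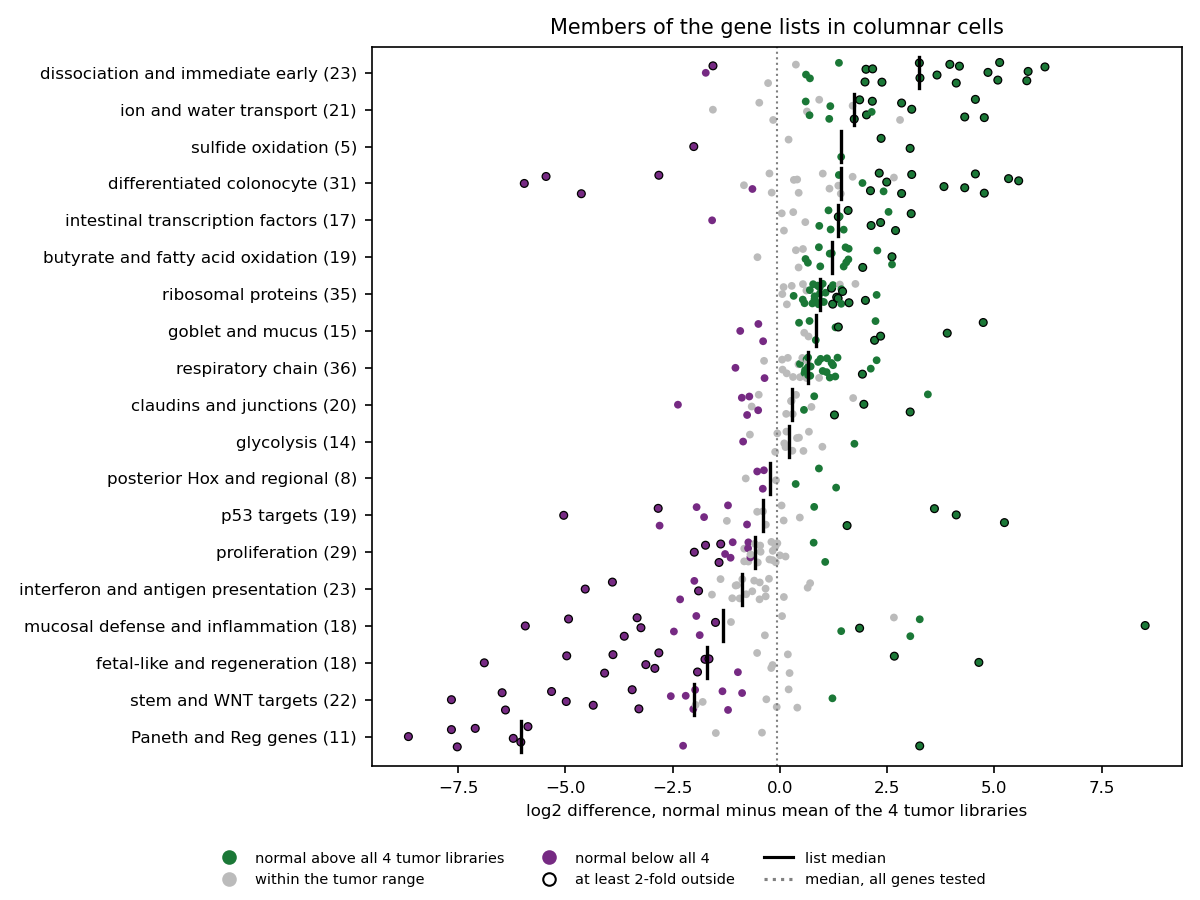
log2 difference of the normal library from the mean of the 4 tumor libraries for every tested member of 19 gene lists, with the number tested in parentheses. Green members lay above and purple ones below all 4 tumor libraries, a black rim marks those at least 2-fold outside, and black bars are list medians, from -6.04 for Paneth and Reg genes to 3.25 for immediate early genes.

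Maturation genes did not move as a block. Of 31 differentiated colonocyte genes tested, 14 lay above, 5 below and 12 within the range, and the median was 1.42. In non-epithelial cells of the same libraries the median was 1.19, with 15 above and 8 below, so the shift was not confined to columnar cells. Of all 9425 genes tested, 2040 were above and 3068 below there, with a median of -0.15. Beside Aqp8, Slc26a3 and Car4, Guca2a (guanylin, 772 CPM against 132 to 213), Mep1a (a meprin protease, 157 against 4.85 to 50.7) and Fabp2 (the intestinal fatty acid binding protein, 48 against 4.43 to 11.4) were above. Within the range were Krt20, Vil1, Cdhr2, Cdhr5 and Lypd8, a surface gene that keeps bacteria off the epithelium. Lypd8 was at 2429, 2708, 4551 and 19454 CPM in tumors and 6157 in normal cells, so that the day 6 library alone exceeded the normal one. Car1 behaved alike, at 256, 193, 194 and 1099.8 CPM against 1041.

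Clca4a and Clca4b, calcium-activated chloride channel regulators, lay on the other side. Clca4b was at 86.6, 130.2, 72.2 and 1418 CPM in tumors and 1.99 in normal cells, from 6 UMIs, and Clca4a at 43.4, 126, 38.4 and 203 against 2.32. Dhrs9, a retinol dehydrogenase, was at 39.8, 66.3, 69.8 and 143 CPM against 0.662, from 2 UMIs. Emp1, an epithelial membrane protein, was at 162, 368, 355 and 228 against 36.4 CPM. Clca4b and Dhrs9 were highest at day 6. In tumor non-epithelial cells Dhrs9 was at 37.6 to 119 and Emp1 at 276 to 514 CPM, and in normal ones at 2.9 and 368.

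Butyrate and fatty acid oxidation genes were mostly higher in normal cells, but few stood 2-fold over every tumor library. Of 19 tested, 15 lay above the range and none below, but only 2 by 2-fold, with a median of 1.21. Slc16a1, which encodes the butyrate carrier MCT1, was at 31.8, 22.6, 38.8 and 65.3 CPM against 230.4, and Acsf2, an acyl-CoA synthetase, at 4.27, 6.58, 2.74 and 4.26 against 19.2. Normal non-epithelial cells held Acsf2 at 21.3 CPM. Slc5a8, the sodium-coupled butyrate carrier, was at 14, 14.4, 29.5 and 175 CPM against 203, so that day 6 came near the normal value. Without day 6, 6 members passed 2-fold, and without day 3, 5 did.

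In sulfide handling, Tst (thiosulfate sulfurtransferase) was at 8.54, 25.2, 7.17 and 28.1 CPM against 127, and Mpst, a related sulfurtransferase, at 6.64, 8.57, 7.81 and 14.5 against 50.3. Suox, sulfite oxidase, was the opposite, at 19.9, 34.1, 30.4 and 16.8 against 5.3 CPM, and it was at 17.2 to 32 in tumor and 14.5 in normal non-epithelial cells. Respiratory chain genes had 22 of 36 members above and 2 below, but only Cox6c, a complex IV subunit, passed 2-fold, at 399, 261, 274 and 419.6 CPM against 1258. Without the day 6 library 5 members passed 2-fold, and without cycling cells 10 did. Of 14 glycolysis genes 12 were within the range, with 1 above and 1 below, and without day 6 there were 6 above and 1 below. Ribosomal protein genes had 27 of 35 above, 7 by 2-fold (Rpl15 at 189, 449, 135 and 463 CPM against 1078), and both single index libraries were the lowest for Rpl15. After thinning to 1000 UMIs 19 lay above and 0 by 2-fold. Without day 6, 12 were above by 2-fold, and with the dual index libraries alone 31 were above, 13 of them by 2-fold, and 2 below. A range of fewer libraries is narrower, which in itself raises such counts.

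Factors that set intestinal identity were mostly above the range, 12 of 17 tested, with 1 below and a median of 1.36. Cdx2, the caudal homeobox factor of the hindgut, was at 38.4, 44.7, 63.5 and 18.2 CPM in tumors and 168 in normal cells. Vdr, the vitamin D receptor, was at 24.2, 32.9, 53.8 and 140.5 against 422, and Atoh1, which commits cells to the secretory lineage, at 11.9, 6.13, 7.6 and 13.1 against 51.3. Hnf4a, a regulator of absorptive genes, was at 145, 199.6, 185 and 309.6 against 532 CPM, above by under 2-fold. Of 8 posterior Hox genes tested none was 2-fold outside, and Hoxb13 was at 311, 172, 797 and 579.5 against 986 CPM.

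Goblet genes were above the range for 10 of 15 members, 5 by 2-fold, with a median of 0.84. Without goblet-rich cells 6 were above, 2 of them by 2-fold, and 4 below, with a median of 0.60. With the markers set at 0.5% of UMIs, an alternative chosen after seeing the data, 6 were above, 3 by 2-fold, with a median of 0.47. Clca1, a secreted goblet protein, was at 120.2, 45.8, 4.85 and 104 CPM against 1153, and Klk1, a kallikrein, at 137, 44.3, 80.2 and 199 against 1499. The log2 difference of Clca1 was 4.74 with the goblet-rich cells and 2.08 without them. The share of thinned columnar cells with a Clca1 UMI was 11.4% (95% interval 8.24 to 15.2%) in normal and 10.5, 3.04, 0.48 and 7.0% in tumor libraries, so that day 1 replicate 1 lay inside the normal interval. Muc2, the main mucin, was within the range at 3291 CPM against 1345 to 3888. Of 20 claudin and junction genes, Cldn15, a pore-forming claudin (10.2, 6.06, 10.3 and 12.7 CPM against 85.4), Cldn23 and Ocln were above by 2-fold. Of the 20, 6 lay above the range, beside 25.3% of all genes tested, and 10 did so without day 3. Cldn4 was below by less, at 410.2, 242, 459.9 and 82.9 against 47 CPM.

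Stem cell and WNT target genes were on the tumor side. Of 22 tested, 15 lay below the range, 8 of them by 2-fold, and 1 above (Lrig1), with a median of -2.0. Notum, a secreted WNT antagonist and WNT target, was at 261, 189.8, 102 and 11.2 CPM in tumors and was taken as 0 in normal columnar cells. Notum, Mmp7, Reg3b, Krt6a and S100a9 are among 22 genes tested that the normal table does not list. They were taken as 0 there, which sets no bound on their level. Nkd1, another negative feedback gene of the pathway, was at 279.8, 209.5, 46.4 and 13.5 CPM against 0.993, from 3 UMIs. Prox1, a homeobox gene switched on by WNT in colon tumors, was at 475, 385, 82.7 and 24.1 against 0.662, from 2 UMIs. Notum, Nkd1 and Prox1 each had its lowest tumor value at day 6. In tumor non-epithelial cells Nkd1 was at 114, 95.4, 25.1 and 9.99 CPM and Prox1 at 201, 246, 73.9 and 45.5. Normal non-epithelial cells held them at 3.39 and 18.9 CPM. At day 6 Prox1 was thus higher in non-epithelial than in columnar cells.

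The stem cell receptor Lgr5 was also lowest at day 6, at 285, 186, 108 and 19.2 CPM against 16.9 in normal cells. Axin2, the usual readout of WNT signaling, was at 164, 164, 76.2 and 16.9 against 21.5 CPM and so within the range, and Ascl2, a stem cell factor, was also within it. Cd44, a WNT target and adhesion receptor, was below by 2-fold, at 229.8, 330.3, 393 and 120.2 CPM against 24.2, and it was at 390.4 to 1091 in tumor and 225 in normal non-epithelial cells. Sox9, the progenitor factor, was within the range at 296 CPM against 113 to 319. Without the day 6 library 15 instead of 8 members lay below by 2-fold.

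After thinning, 16.5, 13.2, 8.83 and 0.446% of tumor columnar cells held a Notum UMI. In the 352 normal cells deep enough Notum was filled in as 0, which sets no bound on a share. In tumor non-epithelial cells 8.39, 8.49, 8.27 and 0.275% held a Notum UMI. The columnar share was above this background in both day 1 libraries and near it at day 3 and day 6. Of the 22 WNT genes, 18 were higher in non-epithelial cells of all 4 tumor libraries than in those of the normal library. Over all 9425 genes tested this held for 3068.

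Spock2, a matrix proteoglycan, was at 1029.7, 673, 191 and 39.9 CPM against 1.65, and Slc30a2, a zinc transporter, at 255, 174, 25.7 and 18.3 against 1.32. Both were again lowest at day 6. Tnfrsf11b, which encodes osteoprotegerin, was at 60.5, 89.6, 25.1 and 37.7 against 2.32 CPM. Of the 15 genes farthest below, Pnliprp2 (a pancreatic lipase relative), Samd5, Khdc1a, Mdfi, Fer1l4 and 2010109I03Rik had tumor minima of 8.99 to 104 CPM and at most 3 UMIs in normal cells. Hba-a1 and Hba-a2, the hemoglobin genes of red cells, ranged from 27.6 to 3071 and 25.1 to 4381 CPM in tumor columnar cells, and in non-epithelial cells from 13.9 to 1606 and 20.9 to 2341. Columnar cells are not known to make them.

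**Figure D3:**
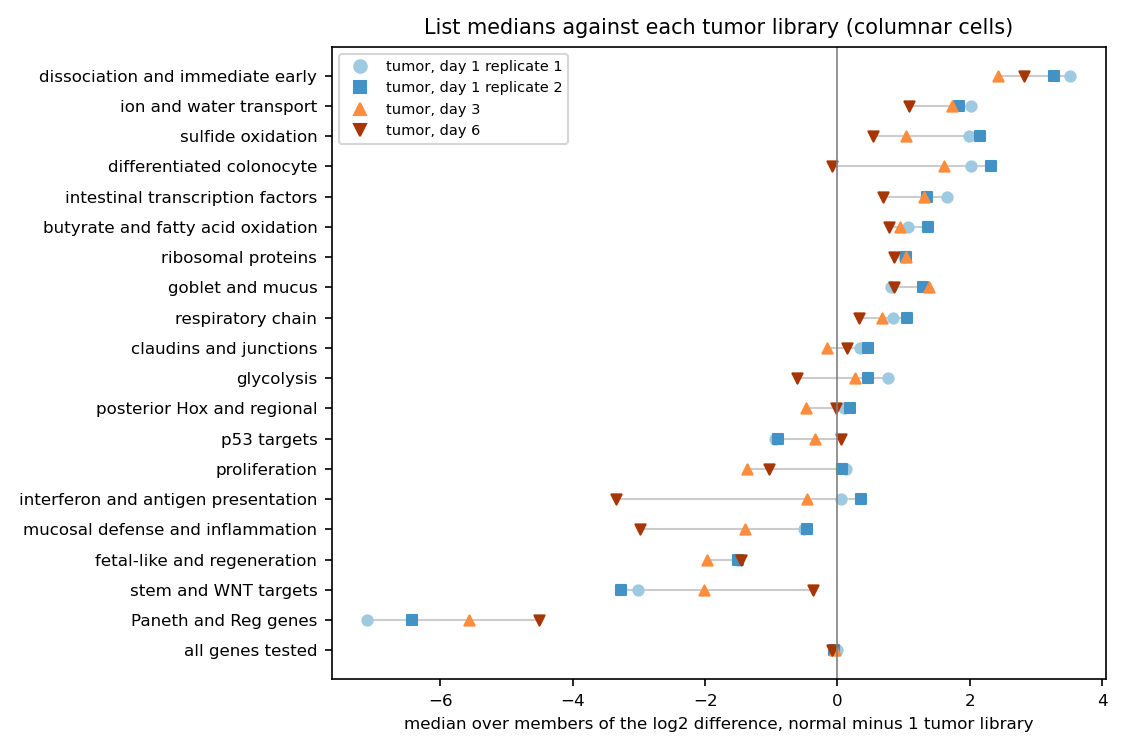
Median over the members of each list of the log2 difference of the normal library from a single tumor library, with colored symbols for the 4 tumor libraries and the same median over all 9425 genes in the bottom row. Day 6 stands nearest to 0 for stem and WNT targets, at -0.37 against -3.27 to -2.01 in the others, and farthest from it for interferon and antigen presentation genes, at -3.35.

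Paneth cell and Reg genes had the lowest list median, -6.04, with 8 of 11 members below the range and 7 by 2-fold. Of these 7, Mmp7, Reg3b, Defa24 and Defa17 are not listed for the normal library and were taken as 0. The median is the value of Defa17, so it rests on such a 0. Reg3g, a bactericidal lectin, was at 1146, 288, 967 and 262 CPM in tumors and 0.331 in normal cells, from 1 UMI. Reg3b was at 257, 273, 197 and 80.9 and Mmp7, the matrilysin of Paneth cells and tumors, at 577, 227, 550.3 and 21.9 CPM, both against a filled-in 0. Lyz1, the Paneth lysozyme, was at 1029.9, 596, 716 and 202 against 2.98 CPM. Nupr1, a stress-induced nuclear protein on the same list, was above instead, at 38.4, 29.6, 39.7 and 49.7 against 379.

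These genes were as widespread in tumor non-epithelial cells. A Reg3g UMI was in 61.6, 14.5, 54.2 and 17.1% of thinned tumor columnar cells and in 59.4, 13.1, 52.6 and 14.6% of tumor non-epithelial cells. For Lyz1 the shares were 45.1, 32.3, 34 and 12.6% and 51, 35.8, 31.6 and 12.6%, and for Mmp7 40, 15.4, 37.2 and 1.97% and 36.1, 11.8, 33.1 and 0.824%. At these shares a UMI in a tumor columnar cell cannot be read as expression by that cell. The totals show only that the tumor suspensions held this RNA. In the normal library Reg3g was at 0.331 CPM in columnar and 0.484 in non-epithelial cells. Lyz1 was at 119 CPM in normal non-epithelial cells, against 540, 370, 668 and 127 in tumor ones, so that the normal suspension held it too. Mmp7 is not listed for the normal library, and its filled-in value sets no bound. Reg4 and Ang4, which normal colonic secretory cells make, were within the range, at 776 and 45 CPM against 495 to 1961 and 24.3 to 408.

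**Figure D4:**
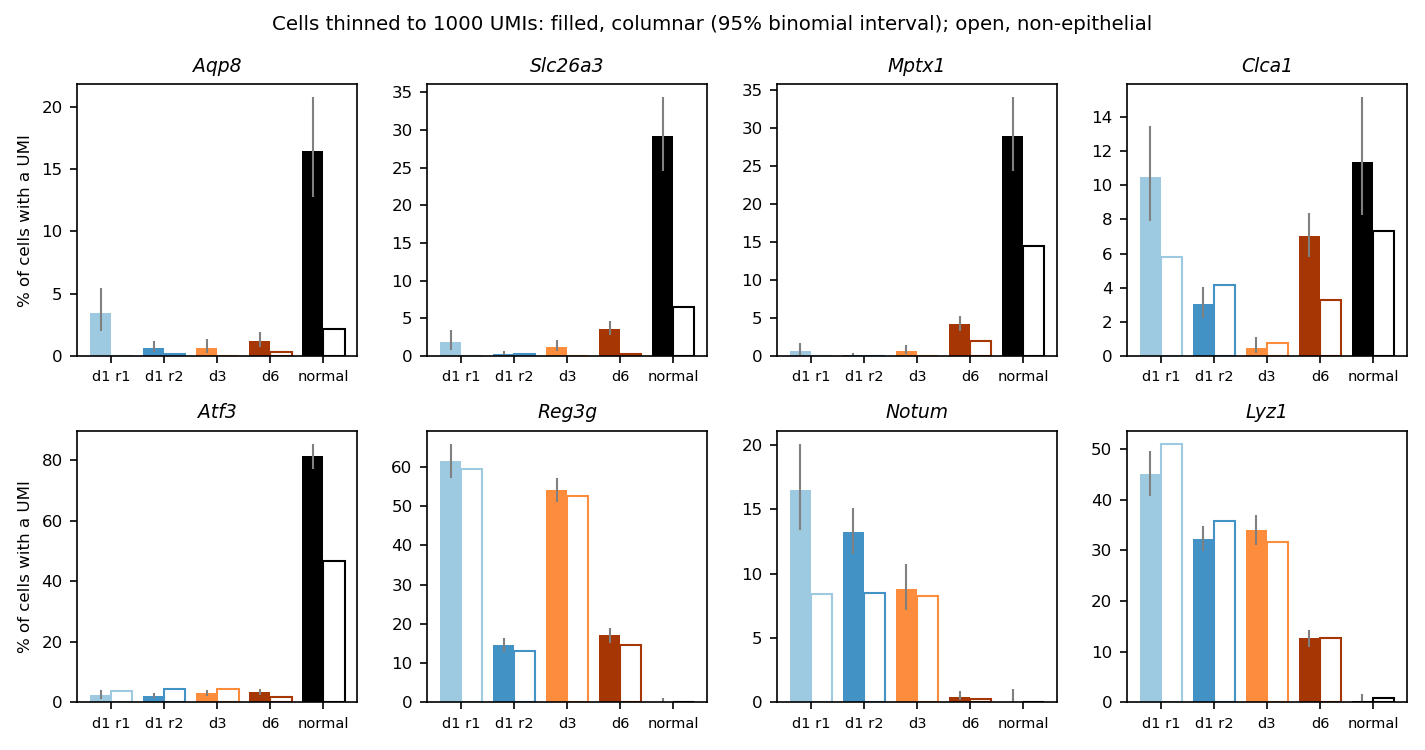
Share of cells with at least 1 UMI of 8 genes after thinning every cell to 1000 UMIs, in percent, for the 4 tumor libraries (d1 r1 and d1 r2 are day 1 replicates 1 and 2, then d3 and d6) and the normal library. Filled bars are columnar cells with the exact 95% binomial interval and open bars non-epithelial cells. Reg3g and Lyz1 stand about as high in open as in filled tumor bars, whereas Atf3 reaches 81.5% of normal columnar cells and 46.9% of normal non-epithelial cells.

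Fetal-like and regeneration genes lay below the range for 11 of 18 members, 10 by 2-fold, with a median of -1.70. Ly6a, which encodes Sca-1, was at 907, 1264, 1456 and 4399 against 188 CPM, and Anxa1, an annexin, at 553, 1024, 597 and 1511 against 111. Clu, clusterin, was at 159, 123, 249 and 14.4 against 5.3 CPM and was lowest at day 6, while Ly6a and Anxa1 were highest then. Basp1, a membrane protein of growing cells, was at 164, 199, 192 and 51.4 against 3.31. In tumor non-epithelial cells Basp1 was at 176 to 241, Anxa1 at 526 to 1284 and Clu at 18.3 to 209 CPM, and in normal ones at 92.9, 295 and 43.1.

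Members above the range were Cyr61 and Areg. Cyr61, a YAP target that is also induced within minutes of serum or stress, was at 11.9, 11.2, 11.6 and 5.88 CPM against 268, and in normal non-epithelial cells it was higher still, at 639.9. Areg, an epidermal growth factor receptor ligand, was at 66.2, 80.8, 120.5 and 101 against 576 CPM. Ctgf, another YAP target, was within the range. Krt6a, a squamous keratin outside the rule, was at 414, 289, 770.1 and 1047 CPM in tumors with no UMI in normal cells, and 47.3, 31.8, 49.2 and 67.9% of tumor columnar and 51, 36.8, 56.4 and 62.9% of tumor non-epithelial cells held one. The summed level of 7 squamous markers was 795 to 2267 CPM before scaling in tumor columnar cells, with all 7 detected, and 21.7 in normal ones, with 4 detected, and its part in the other results was not tested.

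Among defense genes, 9 of 18 lay below and 5 above, beside 29% below and 25.3% above over all genes tested. Lcn2, an iron-sequestering lipocalin, was at 129, 81.3, 77 and 51.6 CPM against 0.331, from 1 UMI, Cxcl5, a neutrophil chemokine, at 104, 109.6, 247 and 304 against 12.9, and Retnlb at 252, 86.7, 212 and 149 against 15.2. Tumor non-epithelial cells held more Lcn2 than columnar cells in each library, at 314 to 336 CPM, with 19.4 in normal non-epithelial cells. Cxcl5 and Retnlb were at 225 to 445 and 71.1 to 238 in tumor and 5.32 and 5.32 in normal non-epithelial cells. S100a9, a neutrophil protein, was at 25.1, 28.3, 86.9 and 11.8 CPM in tumor columnar cells and 248 to 1622 in tumor non-epithelial cells. It is not listed for the normal library and was taken as 0 there, which sets no bound. The 6 neutrophil markers summed to 45.1 to 178 CPM in tumor columnar cells and 1.59 in normal ones. In the latter 1 of the 6 was detected and S100a9 was filled in as 0. Pigr, which carries IgA to the lumen, was at 129, 146, 194 and 1268 against 2512 CPM, and Il18 at 40.3, 28.1, 28.1 and 66.4 against 141.

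Interferon and antigen presentation genes were within the range for 18 of 23 members, and the day 6 library stood far above the others. H2-Aa, a class II chain, was at 91.3, 43.7, 96.6 and 1845 CPM against 118 in normal cells, and Gbp2, a guanylate-binding protein, at 6.4, 8.72, 9.71 and 859 against 9.93. With all 4 tumor libraries none of the 23 was above and 5 were below, beside 25.3% above and 29% below over all genes tested. Without day 6 only 18 members passed the filter of 10 CPM, and of these 6 were above and 3 below. Without day 1 replicate 2, 8 of 23 were below. Ifitm3, an interferon-induced membrane protein, was below all 4 tumor libraries, at 2015, 1131, 1175 and 696 against 49.3, and Ifitm1 likewise at 275, 132, 215 and 143 against 11.3. In non-epithelial cells Ifitm3 was at 1326 to 2292 CPM in the tumor libraries and 707 in the normal one, and Ifitm1 at 311 to 593 and 455.

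Proliferation genes were within the range for 17 of 29 members, with 10 below and 2 above. Over all genes tested 45.7% were within, 29% below and 25.3% above. The S-phase genes Rrm2, a ribonucleotide reductase subunit (30.6, 29.4, 50.6 and 42.4 CPM against 8.61), and Mcm4 of the replicative helicase (31.8, 37, 44.7 and 50.4 against 14.9) were below by 2-fold. In tumor non-epithelial cells they were at 18.6 to 50.5 and 34.3 to 62.7 CPM, and in normal ones at 3.87 and 20.3. Mitotic genes such as Mki67 and Top2a were within. Cells with a UMI of any of 6 cycling genes after thinning made up 20.5, 18.9, 49.5 and 38.3% of tumor columnar cells and 9.94% of normal ones. Of 19 p53 targets, 5 were above and 7 below, to be read beside the same shares over all genes, 25.3% and 29%. Phlda3 was at 143, 140.3, 264 and 53.4 CPM against 2.98 and Ptp4a3 at 99.8, 110.4, 94.5 and 38.1 against 10.3, whereas Btg2 and Pmaip1 were above, at 1254 and 241 CPM against 52.3 to 90.9 and 10.7 to 65.7. Tumor non-epithelial cells held Phlda3 at 121 to 305 and Ptp4a3 at 52.2 to 100.4 CPM, and normal ones held Phlda3, Ptp4a3 and Btg2 at 91.5, 48.4 and 1344. Cdkn1a, which encodes the cell cycle inhibitor p21, and Mdm2 were within.

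Immediate early genes answer stimulation and tissue handling within minutes. The list of dissociation and immediate early genes, which also holds heat shock genes such as Hspa1a, Hsp90aa1 and Hspb1, had the highest median, 3.25. Of 23 tested, 19 lay above the range, 16 by 2-fold, and 2 below. Atf3, a stress-induced bZIP factor, was at 27.3, 29.8, 29.1 and 34.7 CPM in tumors and 2253 in normal cells, 64.9 times the highest tumor value. Dusp1, a MAP kinase phosphatase, was at 18, 20.1, 23 and 15.4 against 1101, and Egr1, a zinc finger factor, at 32.3, 34.9, 37.1 and 30.4 against 1205. Fos, an AP-1 subunit, was at 141, 209, 253 and 420.2 against 4328 CPM. The 4 tumor libraries lay close together for Atf3, Dusp1 and Egr1, and Fos was highest at day 6. Hspb1 (HSP27) was below by 2-fold, at 81.3, 85.9, 69.8 and 88.3 against 26.8, but in non-epithelial cells it was higher in the normal library, at 226 against 97.6 to 146.

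The difference was shared with cells that were not columnar. In normal non-epithelial cells Atf3, Egr1, Fos and Dusp1 were at 1246, 2832, 6213 and 1519.9 CPM, against 20 to 55.9, 55.8 to 122, 228 to 765 and 87.8 to 711 in the tumor libraries. Of the 23 members 19 were above the tumor range there too, with a median log2 difference of 2.57, beside 2040 of all 9425 genes tested. The normal library had the stroma-enriching dissociation, and whether these levels came from handling or from the tissue cannot be told apart. The share of thinned cells with an Atf3 UMI was 81.5% (95% interval 77.1 to 85.4%) in normal columnar cells, 46.9% in normal non-epithelial cells and 2.28 to 3.31% in tumor columnar cells. Gdf15, Rasd1, Plk3, Arc, Edn1 and Cyr61 were also above the tumor range in normal non-epithelial cells. This was not particular to such genes, since all of the 15 genes farthest above were so. Among them, Aqp8 was at 44.5 CPM there against 3.33 to 5.88, and Tgm3 at 426 against 1.39 to 20.5.

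**Figure D5:**
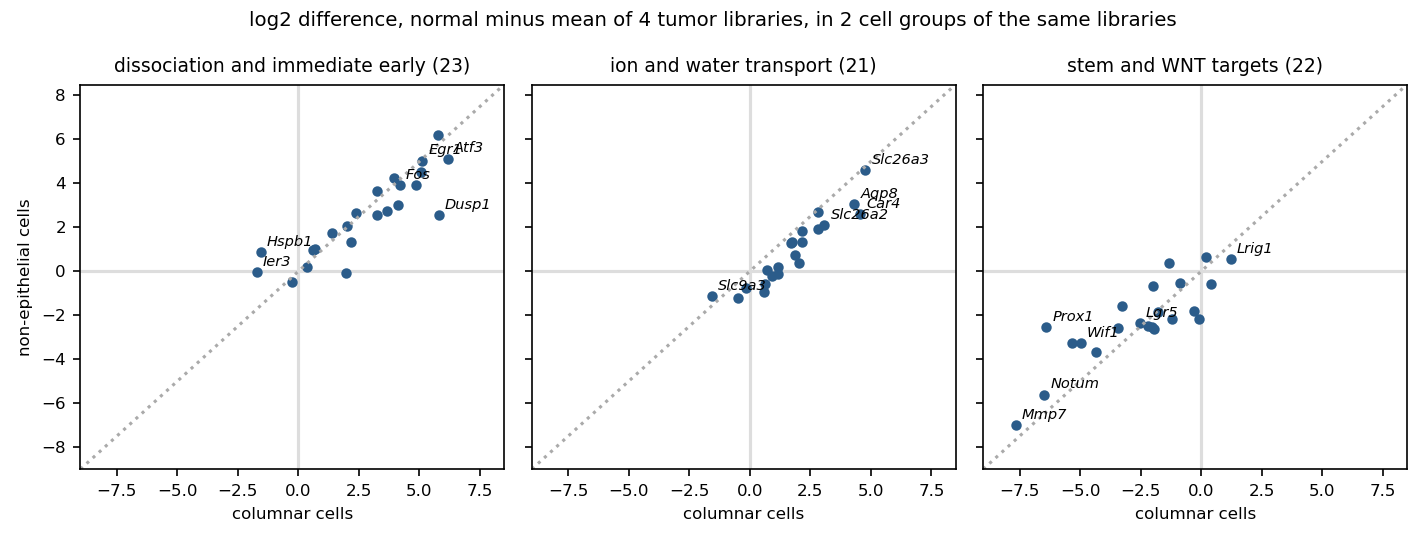
log2 difference of the normal library from the mean of the 4 tumor libraries in columnar cells (horizontal) and in non-epithelial cells of the same libraries (vertical, not scaled beyond library totals), 1 point per gene for 3 lists. The dotted line marks equal differences. Dissociation and immediate early genes, heat shock genes included, lie near it, with medians of 3.25 and 2.57. Transport genes lie mostly under it, with medians of 1.73 and 0.73. Stem and WNT targets have medians of -2.0 and -2.27.

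The promoters of these genes were searched for TGACGT on either strand, the core of the cyclic AMP response element bound by CREB and ATF factors. The 250 bases before the RefSeq start (GRCm38.p6) were available for 17 of the 23 genes, and 4 held the word, against 7.29% of 27025 genes. The windows of these 4 genes are shown because they hold the word. The word, and its overlapping copy on the other strand where there is one, is in capitals.
Atf3 (chr1:191183334-191183583, minus strand): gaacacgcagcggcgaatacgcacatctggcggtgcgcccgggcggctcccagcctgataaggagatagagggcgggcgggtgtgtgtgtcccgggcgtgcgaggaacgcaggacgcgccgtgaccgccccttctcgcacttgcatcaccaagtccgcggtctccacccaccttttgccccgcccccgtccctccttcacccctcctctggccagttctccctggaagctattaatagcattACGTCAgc
Fos (chr12:85473640-85473889, plus strand): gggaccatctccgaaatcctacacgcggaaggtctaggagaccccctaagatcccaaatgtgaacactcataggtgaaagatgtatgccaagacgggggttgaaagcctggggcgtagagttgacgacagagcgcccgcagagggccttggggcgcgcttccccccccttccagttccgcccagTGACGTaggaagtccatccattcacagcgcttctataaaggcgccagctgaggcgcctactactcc
Dusp1 (chr17:26508473-26508722, minus strand): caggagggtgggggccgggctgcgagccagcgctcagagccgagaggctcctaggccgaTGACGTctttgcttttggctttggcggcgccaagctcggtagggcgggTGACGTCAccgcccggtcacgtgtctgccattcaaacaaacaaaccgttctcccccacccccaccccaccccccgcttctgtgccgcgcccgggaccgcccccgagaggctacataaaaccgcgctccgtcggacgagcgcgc
Btg2 (chr1:134079156-134079405, minus strand): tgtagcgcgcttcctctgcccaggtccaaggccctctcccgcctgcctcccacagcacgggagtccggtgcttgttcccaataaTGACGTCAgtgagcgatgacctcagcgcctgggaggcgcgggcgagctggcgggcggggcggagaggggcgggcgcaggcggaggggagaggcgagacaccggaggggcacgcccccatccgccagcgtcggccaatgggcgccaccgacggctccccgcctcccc
Dusp1 and Btg2 held the full palindrome, which reads the same on both strands. Among 15 WNT list genes with a window, Sp5, Tnfrsf19 and Mmp7 held CTTTGAT or its reverse, the word bound by TCF factors, against 3.72% of all genes. A match is a description of the letters in this window and shows no binding.

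The tumor libraries differed among themselves in how near they came to the normal cells. Day 6 was the nearest of the 4 for 35.4% of all 9425 genes. It was the nearest for 19 of 31 colonocyte genes, 14 of 21 transport genes, 16 of 22 WNT genes and 9 of 11 Paneth and Reg genes, and for 2 of 23 interferon genes. Its median log2 distance to the normal library over all genes was 0.51, against 0.62, 0.65 and 0.72 in the others. Day 6 is 1 library, and its day, tumor and sequencing run cannot be told apart. Without it, 22 instead of 14 colonocyte genes lay above the range, 18 instead of 11 of them by 2-fold. For identity factors 11 instead of 6 lay above by 2-fold. The range is narrower without day 6, and counts over all genes rose too.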

How the data were processed

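Single-cell suspensions of mouse colon were captured with the inDrop platform. The authors processed the reads with dropEst against the mouse genome GRCm38 and deposited raw UMI counts per barcode and gene, 1 table per library and not normalized. Gene names of the normal table that R or a spreadsheet had altered (1192) were changed back. That table lists 19223 genes, 319 of them without a UMI, and genes it does not list were taken as 0.

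Counts were summed over columnar cells, scaled with the trimmed mean of M values in edgeR 4.0.16 (R 4.3.3) and log2-transformed with 1 CPM added. Python 3.11.15 with numpy 2.4.6, scipy 1.17.1, pandas 2.3.3 and matplotlib 3.10.9 did the rest. Non-epithelial values are plain CPM. Intervals are exact Poisson or binomial intervals at 95% and cover counting error only. No test and no doublet removal were made, since 1 normal library allows no test. Columnar cells of 2 libraries shared at most 15 barcodes, and at most 8 with the normal library. For shares, cells were thinned to 1000 UMIs, which left out 124 columnar cells at day 6 and 2 in the normal library.

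Genes named were the 15 farthest above and below the range that exceeded non-epithelial cells 2 times, 2 farthest per side in each of 19 lists, and further list members. Some genes that this rule names are not reported here. Cells, lists and comparisons were chosen with earlier results of these data known. Alternatives were DESeq2 1.42.0 size factors, plain totals, other filters, pseudocounts and cell rules, dual index libraries alone, and each tumor library left out.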

Additional observations from a re-analysis of the deposited data

Results flagged for a closer look

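Among 68 genes examined, 4 had a tumor library far from the others by Dixon's criterion for 4 samples on the log2 scale, and it was day 6 each time. Chance flags about 1 in 20 groups. Tgm3 was high at day 6, at 108 CPM. Cyr61, Basp1 and Ptp4a3 were low there, at 5.88, 51.4 and 38.1 CPM. The part of the day, the tumor or the library was not tested.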

How the results depend on the processing

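Of the counts of genes recomputed under the alternatives, 50 stayed within 1.5 times the reported count and 14 did not. A filter at 50 CPM gave 1098 genes above (261 by 2-fold) and 1084 below (151 by 2-fold), and no filter 5338 (893) and 5094 (824), since fewer or more genes were tested. Only genes at least 2 times over non-epithelial cells left 654 above (217 by 2-fold) and 90 below (42 by 2-fold). Thinning every cell gave 747 genes below by 2-fold, and the cause was not tested. Leaving out 1 tumor library each gave 2485 to 2892 genes above (559 to 788 by 2-fold) and 2958 to 3334 below (465 to 716 by 2-fold), the last of them 716 without day 6. Of the list medians, Paneth and Reg genes moved to -3.82 with 5 CPM added, mucosal defense to -2.65 and proliferation to -1.46 without cycling cells, and posterior Hox genes to 0.37 at the 50 CPM filter. The median kept its sign under all 15 alternatives except for interferon genes (14 of 15), glycolysis (14) and Hox genes (12). Of the values of single genes, 936 moved by less than the spread between tumor libraries and 64 by more. The alternative with markers at 0.5% of UMIs was chosen after seeing the data. No paired analysis was possible because the groups share a single replicate number, which was given in accession order. Depth limits low genes, since 3 UMIs in the normal library are 0.993 CPM.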

Other observations

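Markers of other cell types in the columnar cells differed between the libraries, given here as unscaled CPM summed over each list. B and plasma cell markers, which include the immunoglobulin genes Igha and Igkc, summed to 401 to 23399 in the tumor libraries and 2131 in the normal library. Enteroendocrine markers such as Chga and Pyy summed to 454 to 1520.2 against 25.2, and Paneth markers to 246 to 2107 against 3.19. Macrophage markers were at 116 to 190.4 against 58.9 and T cell markers at 6.64 to 60.1 against 0.956. Markers of myofibroblasts and smooth muscle were higher in the normal library, at 278 against 67.2 to 115. Those of fibroblasts, at 157 against 56.9 to 221, endothelium, at 40.5 against 22.2 to 49.3, tuft cells, at 94.6 against 80.6 to 298, and glia, at 2.87 against 0.709 to 3.53, lay within the tumor range. Goblet markers were at 9259.6 against 3559 to 8624 and the 7 columnar markers at 12443 against 7672 to 15084.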
